A study of Mus musculus with 4 samples.

Results

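The 7 genes described here carry out or drive glucose production from lactate, glutamine and other precursors. They were chosen by symbol from the feature table, 7 of 31053 features, and all 7 were measured in every library. Pcx (pyruvate carboxylase) makes oxaloacetate from pyruvate in mitochondria, and Pck1 (cytosolic phosphoenolpyruvate carboxykinase) turns oxaloacetate into phosphoenolpyruvate. Fbp1 (fructose-1,6-bisphosphatase) removes a phosphate from fructose bisphosphate. G6pc (glucose-6-phosphatase) and Slc37a4 (the glucose-6-phosphate transporter of the endoplasmic reticulum) together release free glucose, and Slc2a2 (GLUT2) lets glucose leave through the basolateral membrane. Ppargc1a (PGC-1alpha) is a transcriptional coactivator of mitochondrial and gluconeogenic genes.

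The kidney is the other organ besides the liver that releases glucose into blood, and it does so from the proximal tubule. This tubule runs through segments S1, S2 and S3, reabsorbs filtered glucose on its luminal side and burns mostly fatty acids and lactate. Insulin lowers transcription of Pck1 and G6pc by keeping FoxO factors out of the nucleus, and glucagon, catecholamines and acidosis raise it through CREB and other factors. FGF23 is the bone-derived hormone that, with its co-receptor Klotho, acts on the tubule to lower phosphate reabsorption and active vitamin D.

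The 4 droplet libraries came from kidneys of C57BL/6J mice 10 weeks old, each from paired male and female kidneys pooled before digestion. Mice of 3 libraries had 1 intraperitoneal dose of 10 µg recombinant human FGF23 and were killed 1, 4 or 12 h later, and the control library is labelled 0 h with no FGF23. The name of the control's deposited matrix points to saline at 1 h, and the label was used here. With 1 library per time and no untreated library at 4 or 12 h, the effects of FGF23, of injection, of the hour of the day and of the single preparation cannot be told apart, and no test between times is possible. The labels do not say how many animals entered a library.

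The libraries held 12245 to 13813 barcodes and 139675666 to 158838728 UMIs (counted molecules). After filters 8791 to 10255 cells remained per library, with median depths of 8935 to 11286 UMIs, and 36 to 57 barcodes were shared between pairs of libraries. Mitochondrial UMIs took a lower share at 4 h: a median of 15.8% per cell, against 19.4% to 20.9% in the other 3 libraries. Clusters were named from marker genes, with the 7 members kept out of the genes clustered on. Of 47 clusters, 17 fell to the proximal tubule, each with at least 4 markers of its segment in 10% or more of its cells. S1-like cells numbered 2551, 2541, 3193 and 2964 at 0, 1, 4 and 12 h. S2-like cells numbered 3715, 3543, 3720 and 3138, and S3-like cells 481, 265, 506 and 393. The labelled tissue was borne out by its markers: Slc5a2, the luminal glucose carrier of S1, had 19616 UMIs in S1-like and 41 in S3-like cells at 0 h, and Cyp7b1, a marker of S3, had 8 and 2981. Other S3 markers did not separate S2- from S3-like cells as cleanly: at 0 h Slc7a13 was at 705.5 CPM (UMIs per 1000000 UMIs) in S2-like and 1129 CPM in S3-like cells, and Slc22a30 at 336 and 315 CPM. Among S2 markers at 0 h, Slc22a6, Slc13a3 and Cyp2e1 were highest in S2-like cells. Slc22a7 was at 58.5 CPM in S2- and 625 in S3-like cells, and Slc22a8 at 296 in S2- and 334 in S1-like cells. Cluster 8 (S2-like) and cluster 17 (S3-like) lay near a segment boundary, with standardized marker scores leading the next segment by 0.19 and 0.22.

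On the mouse genome build GRCm38 (mm10), all 7 genes are protein-coding, and each has 1 row in the feature table. Pck1 (ENSMUSG00000027513) lies on chromosome 2 from 173153048 to 173159273 and G6pc (ENSMUSG00000078650) on chromosome 11 from 101367561 to 101377903, both on the plus strand. Fbp1 (ENSMUSG00000069805) lies on chromosome 13 from 62864753 to 62888282 on the minus strand. Pcx (ENSMUSG00000024892) spans 4510472 to 4621752 on chromosome 19, and Slc37a4 (ENSMUSG00000032114) 44396852 to 44402968 on chromosome 9, both on the plus strand. Slc2a2 (ENSMUSG00000027690) covers 28697903 to 28731359 on the plus strand of chromosome 3, and Ppargc1a (ENSMUSG00000029167) 51454250 to 51567726 on the minus strand of chromosome 5. Slc2a2 overlaps the antisense gene 1700112D23Rik, and Pcx overlaps Lrfn4 on the other strand. Reads of such a pair cannot be told apart unless counting used the strand, which the sources used here do not say. The partners had few UMIs of their own in S1-like cells over the 4 libraries: 119 for 1700112D23Rik beside 26945 for Slc2a2, and 32 for Lrfn4 beside 21747 for Pcx.

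Promoters of 4 members follow, because the data bear on these genes at 4 h. They are taken from RefSeq on GRCm38.p6, as the 250 bases before and 50 after an annotated start, 5′ to 3′ on the gene's own strand. Pck1 and G6pc were higher at 4 h in S2- and S3-like cells, Slc37a4 had the pattern most like that of G6pc, and Ppargc1a was lower in S1-like cells. Capitals mark matches to the motifs searched.
Pck1, chr2:173152823-173153122, plus strand: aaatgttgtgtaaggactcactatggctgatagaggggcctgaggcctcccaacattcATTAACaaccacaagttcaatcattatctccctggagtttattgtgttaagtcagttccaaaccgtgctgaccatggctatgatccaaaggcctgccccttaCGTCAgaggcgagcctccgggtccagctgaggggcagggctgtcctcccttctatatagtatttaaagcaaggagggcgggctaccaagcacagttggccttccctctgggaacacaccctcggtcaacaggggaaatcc
G6pc, chr11:101367466-101367765, plus strand: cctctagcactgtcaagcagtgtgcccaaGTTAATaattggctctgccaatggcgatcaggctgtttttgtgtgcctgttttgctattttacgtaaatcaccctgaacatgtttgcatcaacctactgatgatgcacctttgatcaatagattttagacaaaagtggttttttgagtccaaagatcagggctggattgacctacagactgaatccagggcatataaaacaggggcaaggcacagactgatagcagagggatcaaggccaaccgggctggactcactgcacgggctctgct
Slc37a4, chr9:44396849-44397148, plus strand: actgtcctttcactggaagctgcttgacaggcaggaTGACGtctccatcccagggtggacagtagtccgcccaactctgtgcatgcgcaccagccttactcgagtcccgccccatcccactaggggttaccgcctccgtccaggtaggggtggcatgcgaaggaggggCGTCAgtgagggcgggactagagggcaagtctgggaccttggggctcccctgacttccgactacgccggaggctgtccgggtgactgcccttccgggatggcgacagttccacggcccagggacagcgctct
Ppargc1a, chr5:51567676-51567975, minus strand: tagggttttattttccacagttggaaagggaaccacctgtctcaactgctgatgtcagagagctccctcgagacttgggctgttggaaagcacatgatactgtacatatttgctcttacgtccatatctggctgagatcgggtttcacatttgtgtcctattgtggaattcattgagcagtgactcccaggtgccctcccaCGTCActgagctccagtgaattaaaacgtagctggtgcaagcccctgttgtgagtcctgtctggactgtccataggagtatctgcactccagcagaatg

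The motifs searched on both strands were the CRE full site TGACGTCA and the short CRE motif TGACG contained in it, the FoxO site TGTTTAC, the HNF1 motif GTTAAT, the glucocorticoid receptor motif TGTTCT and the E-box CACGTG. Windows of all 7 members were searched, 1 to 3 per gene. A member counts if any of its windows held the motif, while the share beside it is per single window. The short CRE motif was in windows of 3 of 7 members, and 20.8% of all 32851 promoter windows of this length held it. In Pck1 it lies 90 to 86 bases before the start, in Ppargc1a 49 to 45 bases before it, and in the Slc37a4 window shown at 214 to 210 and again at 82 to 78 bases before the start. The HNF1 motif was in 2 of 7 members, G6pc (221 to 216 bases before the start) and Pck1 (192 to 187 bases before it), against 7.1% of all windows. An E-box was found in 1 member, Pcx, against 7.15% of windows. No member's window held the CRE full site (1.79% of windows), the FoxO site (3.65%) or the glucocorticoid receptor motif (19%). These are matches of letters in these windows only. Variants of the motifs, such as FoxO sites spelled other than TGTTTAC, were not searched, so no match does not mean no site.

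Levels are given as CPM of all cells of a class in a library, with exact Poisson 95% intervals in the plots. Intervals and floors cover counting error only. In each of the 4 libraries, 6 members were highest in a proximal tubule segment among the 12 classes that held at least 50 cells in every library. The exception was Ppargc1a, which was highest in cells like the thick ascending limb (TAL).

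**Figure D1:**
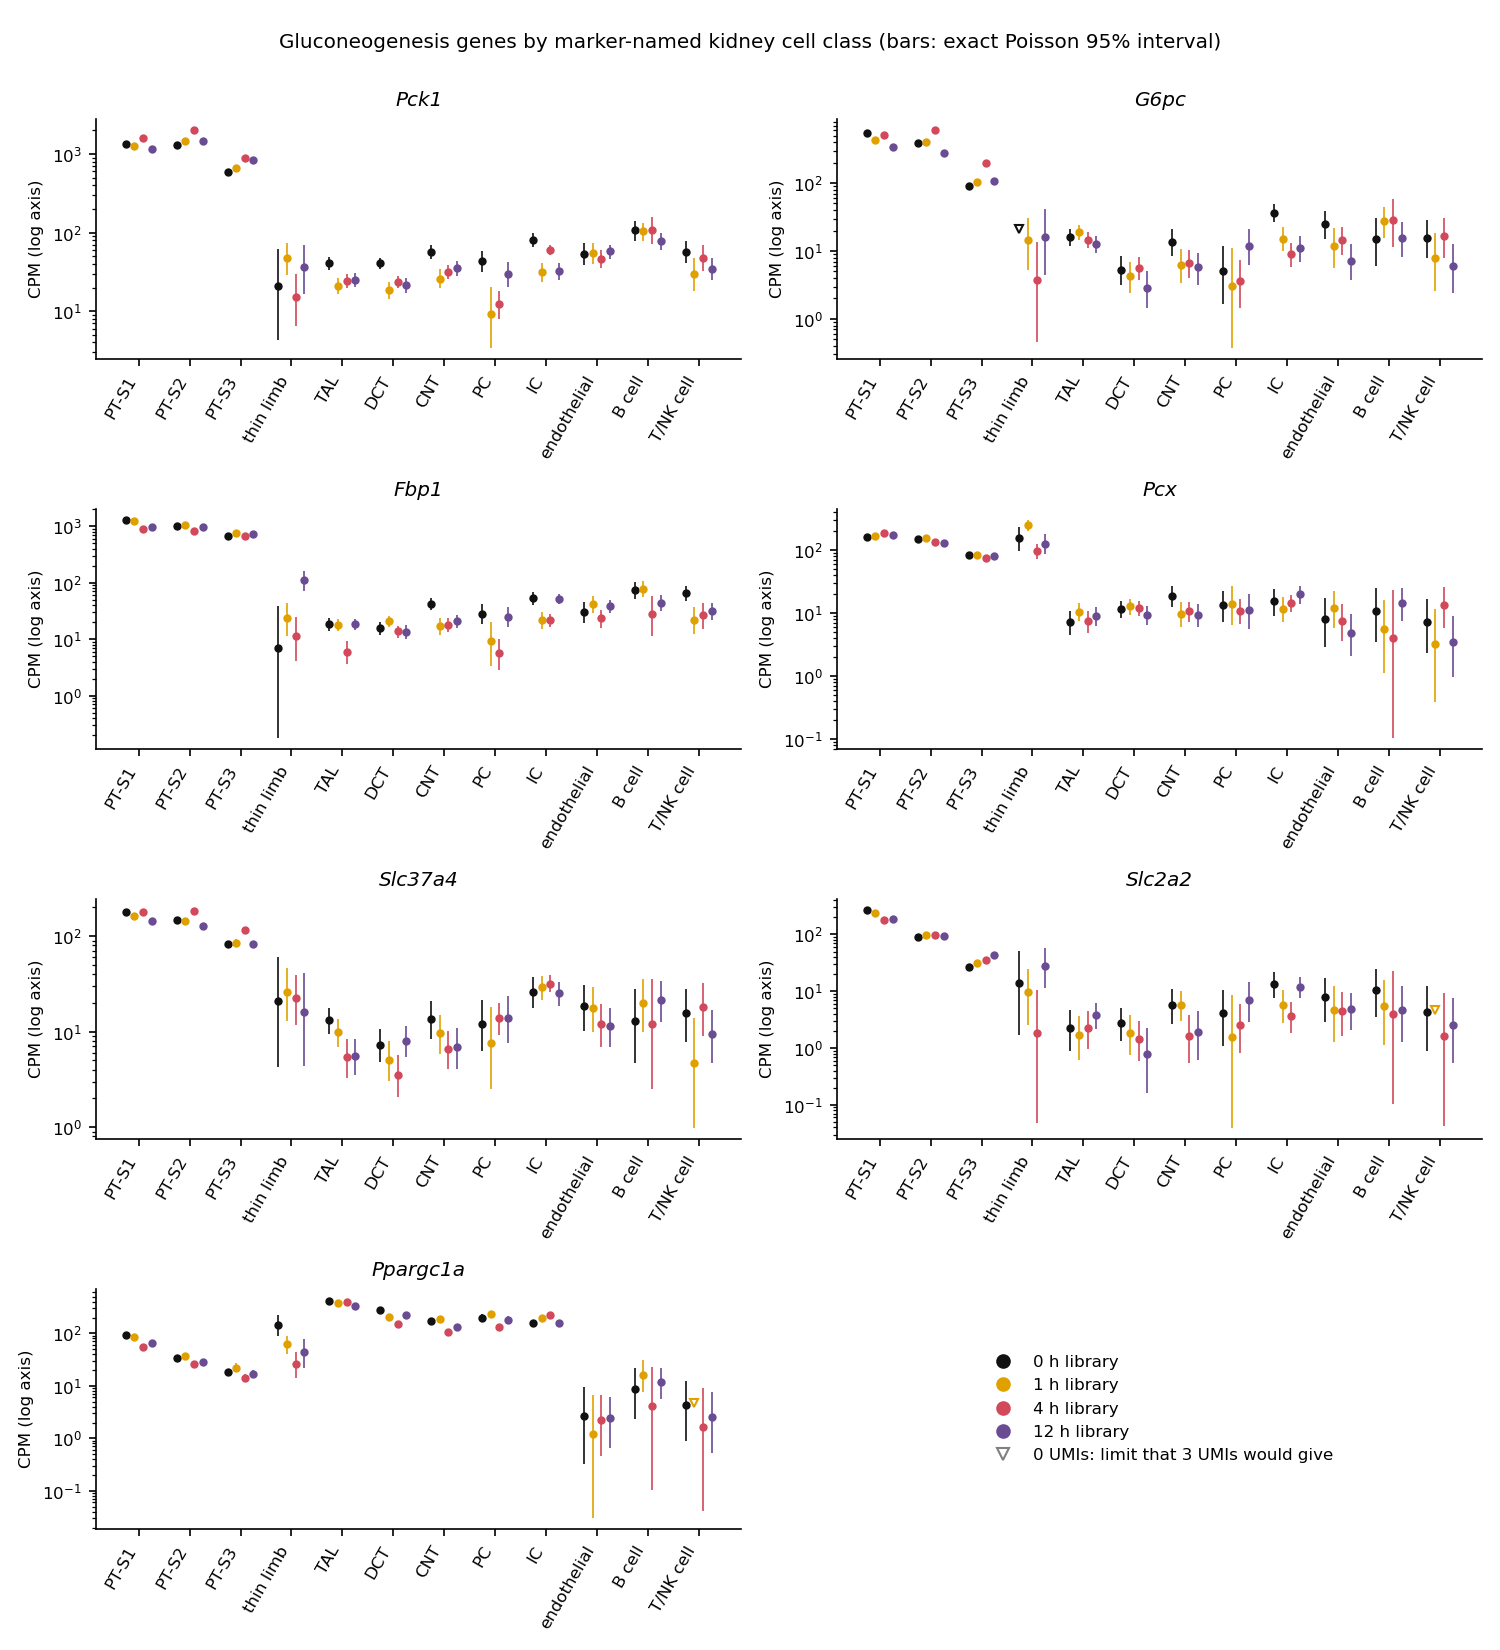
Level of each member (CPM, log axis) in marker-named cell classes, 1 point per library with its exact Poisson 95% interval; open triangles stand for 0 UMIs and are drawn at the level of 3 UMIs. Pck1, G6pc, Fbp1, Slc37a4 and Slc2a2 sit highest in the 3 proximal tubule segments, Pcx is as high in the few thin limb-like cells, and Ppargc1a is highest in TAL-like cells, at 331 to 410 CPM.

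Pyruvate enters the pathway through Pcx. In S1-like cells its level was 157, 162, 186 and 169.9 CPM at 0, 1, 4 and 12 h, in S2-like cells 149, 155, 135 and 129.6, and in S3-like cells 83.9, 83.9, 73.5 and 80.4. S3-like cells were thus lowest of the segments in all 4 libraries, on average by 1.07 on the log2 scale against S1-like cells (SD 0.19 over 4 libraries). An exact sign-flip permutation test over 4 libraries cannot go below 0.125, two-sided, and this contrast gave p = 0.125. The 4 libraries are 4 times, not replicates, so SD and p, here and below, mix change over time with spread between preparations. Thin limb-like cells had 153, 245, 95.6 and 125 CPM, from 22 to 103 UMIs in 17 to 47 cells, so the level there rests on few cells. Distal classes ranged from 7.03 CPM in TAL-like cells at 0 h to 19.6 CPM in cells like intercalated cells (IC) at 12 h.

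Pck1, the step that commits oxaloacetate to glucose, was the member whose mean level was higher in S2- than in S1-like cells. Its level was 1329.8, 1249.98, 1604 and 1156 CPM in S1-like cells and 1301, 1476, 2018 and 1476 in S2-like cells. S3-like cells had 587, 674, 902 and 850.2 CPM. S2-like cells were higher than S1-like cells in 3 of 4 libraries (mean log2 difference 0.22, SD 0.18, exact sign-flip permutation p = 0.25), and at 0 h the order was reversed by a log2 difference of -0.03. S3-like cells were lower than both in 4 of 4 libraries, by a mean log2 difference of -0.84 against S1-like cells (SD 0.30) and -1.06 against S2-like cells (SD 0.18).

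Fbp1 fell off least toward S3. Its level was 1277, 1239, 893 and 973 CPM in S1-like cells, 1022, 1030.1, 819 and 957 in S2-like cells, and 657, 747, 659 and 739 in S3-like cells. The mean log2 difference of S3- from S1-like cells was -0.63 (SD 0.26, lower in 4 of 4 libraries).

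Both genes of glucose release in the endoplasmic reticulum were lowest in S3-like cells. G6pc was at 545, 430.04, 508 and 339 CPM in S1-like cells, 392, 404, 599 and 281 in S2-like cells, and 91.2, 104, 199.6 and 108 in S3-like cells. Its mean log2 difference of S3- from S1-like cells was -1.91 (SD 0.53). Slc37a4, its partner in the endoplasmic reticulum, was at 178, 162, 179 and 144 CPM in S1-like, 148, 145, 185 and 127 in S2-like, and 81.8, 84.1, 116 and 81.8 in S3-like cells. Slc37a4 differed less between S3 and S1 (mean log2 difference -0.88, SD 0.21) than G6pc did.

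Slc2a2 had the steepest fall of the 7 from S1 to S3, with a mean log2 difference of -2.65 (SD 0.57). From S1 to S2 the mean log2 difference was -1.24 (SD 0.15) for Ppargc1a and -1.16 (SD 0.33) for Slc2a2. Slc2a2 was at 264, 234, 177 and 183 CPM in S1-like cells and at 88.6, 97.4, 99.6 and 94.3 in S2-like cells. In S3-like cells it was at 26.6, 31.0, 35.4 and 44.0 CPM. The groups did not overlap: every S1-like value was above every S2-like value, and every S2-like value above every S3-like value. The levels of Pcx and Ppargc1a were separated in the same way. The share of all genes so separated was not counted. The S3- to S1-like log2 difference of Slc2a2 was -3.31, -2.92, -2.32 and -2.06 at 0, 1, 4 and 12 h. All 7 members were lower in S3- than in S1-like cells in 4 of 4 libraries, each at the smallest p that 4 libraries allow, 0.125. The share of all genes that do so was not counted, so this order is not shown to be particular to the members.

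Ppargc1a was at 92.4, 86.9, 55.2 and 64.8 CPM in S1-like cells, 33.8, 36.3, 25.7 and 29.0 in S2-like cells, and 18.1, 22.2, 14.0 and 17.1 in S3-like cells. TAL-like cells held 409.8, 377, 387 and 331 CPM. Cells like the distal convoluted tubule (DCT) held 276, 203, 152 and 219 CPM. In cells like connecting tubule (CNT), principal (PC) and intercalated cells it ranged from 107 CPM (CNT-like, 4 h) to 230.4 CPM (PC-like, 1 h). Every one of these distal values was above the highest proximal value, 92.4 CPM. The interval of TAL-like cells was above those of all other distal classes in each library. Below them the order changed between libraries, and the DCT-, PC-, CNT- and IC-like intervals overlapped at 1 h.

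UMIs of abundant tubule genes also float free between droplets, so each member was set against the summed UMIs of 7 proximal tubule markers. For Pck1 this ratio at 0 h was 96.7 per 1000 marker UMIs in S1-like cells, 134 in TAL-like cells (exact 95% interval 112 to 159) and 99.8 in T/NK-like cells (71.3 to 136). For Fbp1 it was 92.8 in S1-like cells, 61.2 in TAL-like and 112 in T/NK-like cells. The ratios outside the proximal tubule were not all near the proximal one. Pck1 in DCT-like cells was at 188 (158 to 221) at 0 h, 1.94 times the S1-like value, and at 0.90 to 1.03 times it in the later libraries. G6pc in the 3 later libraries was at 86.7, 69.1 and 44.5 in TAL-like cells against 34.0, 38.5 and 28.8 in S1-like cells, and each TAL interval lay above the S1-like value. These rest on 50 to 145 UMIs each. Over all classes outside the proximal tubule the Pck1 ratio ran from 0.46 times the S1-like one in IC-like cells at 12 h (64 UMIs) to 3.41 times in B cell-like cells at 4 h (27 UMIs). How much of the low levels outside the proximal tubule is free RNA was not tested. For Ppargc1a the ratio was 1352 in TAL-like cells at 0 h and 1165 at 12 h, against 6.72 and 5.50 in S1-like cells and 7.48 and 7.52 in T/NK-like cells (3 UMIs each).

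The share of cells with at least 1 UMI was compared after thinning every cell to 2000 UMIs, with shallower cells left out. Pck1 was then found in 76.7% to 86.7% of S1-like cells, 82.4% to 93.8% of S2-like cells and 59.3% to 71.2% of S3-like cells over the 4 libraries. At 0 h the unthinned share in S1-like cells was 91.7%, at a median depth of 9224 UMIs, and 224 of 2551 cells were too shallow to thin. The same thinned share in T/NK-like cells, which do not make glucose, was 3.68% to 10.5%. Ppargc1a was found in 49.2% to 54.5% of TAL-like cells and in 10.5% to 17.7% of S1-like cells, against 0% to 0.669% of T/NK-like cells, whose median depth was 2804 to 3242 UMIs.

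No member was called changed at 1 h in any segment. A gene was called when its CPM differed at least 1.5-fold from the 0 h library, its exact binomial 95% interval excluded no change, and it had at least 100 UMIs over both libraries. In S1-like cells 0 of 7 members passed at 1 h, against 1.54% of all tested genes called higher and 1.38% called lower. In S2-like cells the count was 0 of 7, against 1.16% higher and 1.13% lower, and in S3-like cells 0 of 7, against 1.33% and 1.41%. The member farthest from 0 at 1 h was G6pc in S1-like cells, with a log2 ratio of -0.34 (95% interval -0.38 to -0.31).

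**Figure D2:**
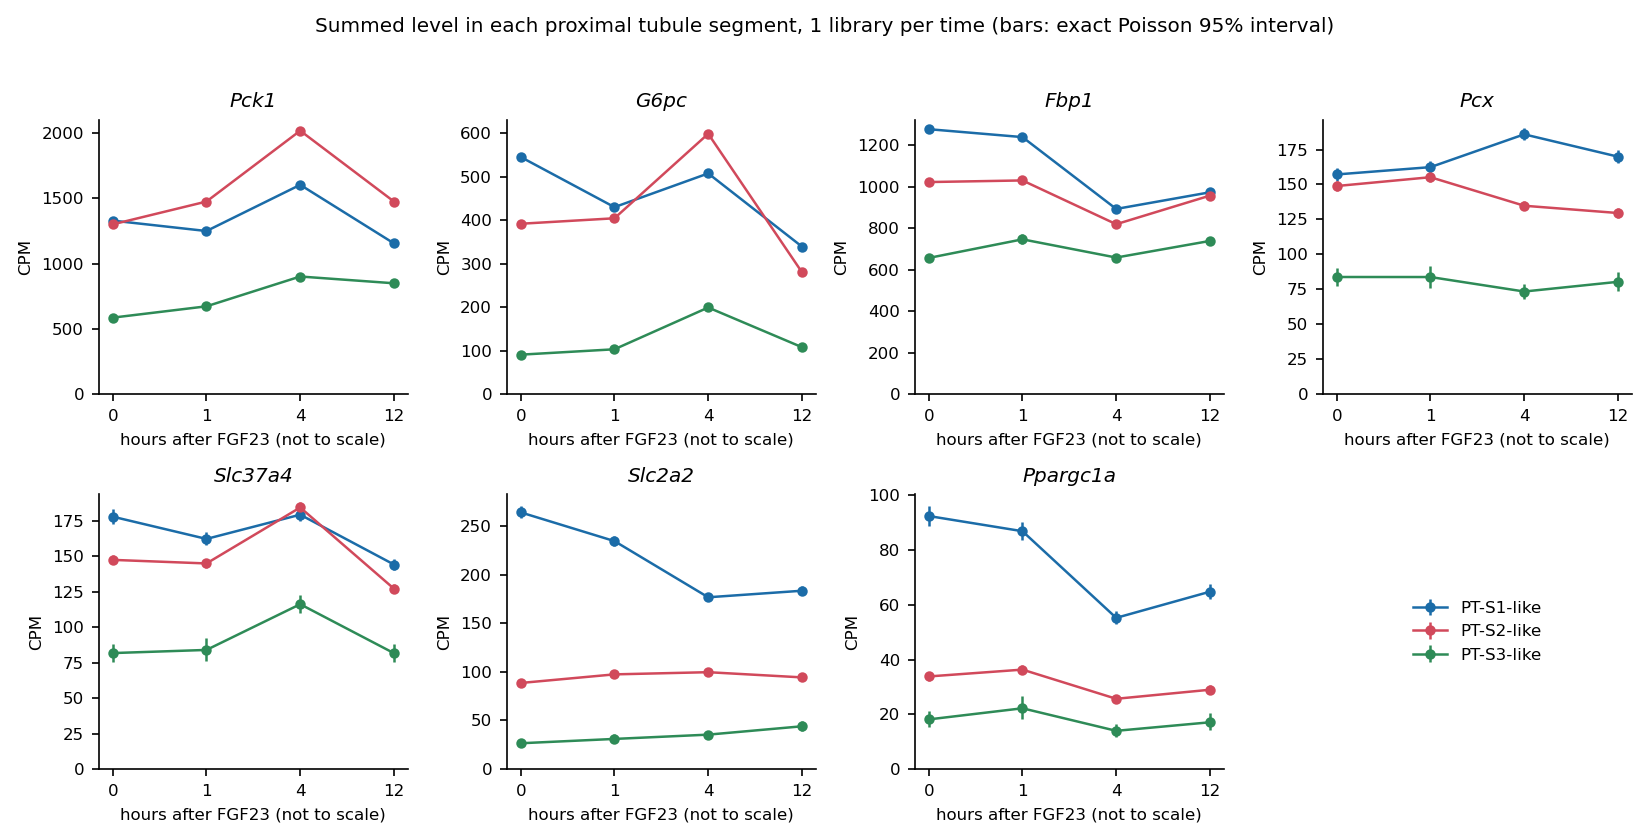
Level of each member (CPM) in S1-, S2- and S3-like cells at 0, 1, 4 and 12 h, 1 library per time, with exact Poisson 95% intervals. Pck1 peaks at 4 h in all 3 segments and G6pc at 4 h in S2- and S3-like cells, while Ppargc1a is lowest at 4 h in all 3 segments. In S3-like cells the log2 ratio of Ppargc1a from 4 to 12 h is 0.29, with an interval (-0.06 to 0.65) that includes 0.

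At 4 h Pck1 and G6pc were higher in S2- and S3-like cells. In S2-like cells 2 of 7 members were called higher and 0 lower, against 5.42% and 4.86% of all tested genes. Pck1 went from 1301 to 2018 CPM (1.55-fold; log2 ratio 0.63, interval 0.62 to 0.65) and G6pc from 392 to 599 CPM (1.53-fold; log2 ratio 0.61, interval 0.59 to 0.64). Both sit close to the 1.5-fold line, and the total without mitochondrial UMIs leaves 0 of 7 called. The mitochondrial share of UMIs in S2-like cells was 21.5% at 0 h and 16.3% at 4 h. Without mitochondrial UMIs in the total, the median log2 ratio of all tested genes in S2-like cells moved from 0.03 to -0.06. The sex makeup of S2-like cells also differed, by the sex calls described below. At 0 h 565 cells were called female and 1975 male, and at 4 h 705 and 1811. At 0 h Pck1 was at 2630 CPM in female- and 1033 in male-called S2-like cells, and G6pc at 557 and 389. The part of this makeup in the calls was not tested.

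In S3-like cells at 4 h the same pair was called higher, 2 of 7, and 0 were lower, against 5.14% and 5.33% of all tested genes. G6pc went from 91.2 to 199.6 CPM, 2.19-fold (log2 ratio 1.13, interval 1.01 to 1.25), from 759 and 2028 UMIs. Pck1 went from 587 to 902 CPM, 1.54-fold (log2 ratio 0.62, interval 0.57 to 0.67). Slc37a4 had a log2 ratio of 0.51 (interval 0.37 to 0.65) and stayed under the fold. The makeup of S3-like cells also differed: cluster 21, with G6pc at 29.1 CPM at 0 h, went from 35.6% to 23.9% of these cells, and cluster 17, at 169 CPM, from 35.6% to 44.7%. Markers of both segments moved in both directions in these cells. Of the S2 markers, Slc22a6 went from 238 to 530.4 CPM, Slc22a8 from 14.1 to 32.9 and Slc13a3 from 104 to 174. Slc22a7 went from 625 to 746 CPM and Cyp2e1 from 241 to 222. Of the S3 markers, Cyp7b1 went from 358 to 258 CPM, Atp11a from 696 to 463 and Slc7a13 from 1129 to 930. Slc22a30 went from 315 to 254 CPM, while Slc22a13 rose from 183 to 217 and Slc7a12 from 352 to 453. Within the 3 clusters the 4 h log2 ratio of G6pc ran from 0.44 to 1.04 and that of Pck1 from 0.47 to 0.73. The part of makeup and markers in these calls was not tested. Mitochondrial UMIs took 27.3% at 0 h and 19.3% at 4 h in these cells, and without them in the total the median over all genes was -0.12 and G6pc was the 1 member still called. Pck1 was also no longer called with doublet calls kept or at clustering resolution 1.0.

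S1-like cells differed: 1 member was called lower at 4 h and 0 higher, against 4.69% and 6.56% of all tested genes. This was Ppargc1a, from 92.4 to 55.2 CPM (0.598-fold; log2 ratio -0.74, interval -0.83 to -0.66). Pck1 had a log2 ratio of 0.27 there and G6pc one of -0.10. Slc2a2 (-0.58), Fbp1 (-0.52) and Ppargc1a were all below 0, and all 3 were called lower with the total without mitochondrial UMIs. Fbp1 and Ppargc1a had negative 4 h ratios in every one of the 6 S1-like clusters with 50 cells at both times and in every one of the 7 S2-like clusters, with Fbp1 between -0.65 and -0.23. Pck1 had positive 4 h ratios in 6 of 6 S1-like, 7 of 7 S2-like and 3 of 3 S3-like clusters. G6pc was above 0 in 4 of 6, 5 of 7 and 3 of 3. These clusters share their library and are not replicates.

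By 12 h Pck1 and G6pc had come down from their 4 h levels in S1- and S2-like cells. From 4 to 12 h G6pc had a log2 ratio of -1.09 in S2-like cells (interval -1.12 to -1.06), -0.58 in S1-like cells and -0.88 in S3-like cells. Against 0 h, 1 of 7 members was called lower in S1-like cells and 0 higher, where 3.11% of all tested genes were lower and 3.58% higher. This was G6pc, from 545 to 339 CPM (0.623-fold; log2 ratio -0.68, interval -0.72 to -0.65). Cluster 1, with G6pc at 844 CPM at 0 h, went from 31.8% to 16.7% of S1-like cells, and cluster 0, at 293 CPM, from 28.5% to 37.2%. Within 6 of the 7 clusters, leaving out cluster 43 with 42 and 19 cells, the log2 ratio of G6pc ran from -0.75 to -0.12. The part of the makeup in the call was not tested. The median log2 ratio of the 7 members at 12 h was -0.39 in S1-like, -0.20 in S2-like and 0.17 in S3-like cells, beside 0.04, -0.03 and -0.03 for all tested genes.

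In S2-like cells 0 of 7 were called at 12 h, against 3.85% higher and 5.09% lower. In S3-like cells 1 of 7 was called higher and 0 lower, against 3.29% and 5.19%. This was Slc2a2, from 26.6 to 44.0 CPM (1.66-fold; log2 ratio 0.73, interval 0.48 to 0.98), resting on 221 and 332 UMIs. It was no longer called with doublet calls kept or at clustering resolution 1.0. Pck1 kept a log2 ratio of 0.53 (interval 0.48 to 0.59) in S3-like cells at 12 h, under the fold.

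In the distal nephron, TAL-like cells had log2 ratios of Ppargc1a of -0.12, -0.08 and -0.31 at 1, 4 and 12 h. In DCT-like cells it was -0.44, -0.86 and -0.33. The 4 h value in DCT-like cells, from 276 to 152 CPM, was of the same sign and size as the one in S1-like cells.

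Levels of stress genes and of markers of other sources moved with time in the same cells, and their part in these results was not tested. The 9 genes of a dissociation stress list (such as Fos and Egr1) summed to 665.5, 886, 544 and 303 CPM in S2-like cells at 0, 1, 4 and 12 h, with all 9 detected at each time. In S3-like cells they summed to 317, 613, 252 and 108 CPM, with Atf3 at 0 UMIs at 12 h. Digestion, injection and FGF23 cannot be told apart as sources of these levels. An S2-like cluster led by Cyr61, Pdk4, Fosb and Angptl4 held 564, 389, 188 and 53 cells, and without it Pck1 and G6pc were still called higher at 4 h. Of 14 pancreas markers, Cela1 was at 354 to 427 CPM in S2-like cells at every time. The other 13 summed to 8.69 CPM at 0 h and 7.33 CPM at 1 h in S2-like cells, and to 0.0927 CPM at 4 h and 0 UMIs at 12 h, when Ins2 and Gcg were at 0. Liver markers (9 genes, Ahsg at 0 UMIs at each time) in S3-like cells summed to 169, 170.4, 353 and 589 CPM. Neutrophil markers in S3-like cells summed to 52.2 CPM at 0 h and to 6.32, 0.886 and 1.33 CPM later.

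Each library held cells of both sexes, told apart by Xist against 4 genes of the Y chromosome, so a male and a female value could be set side by side within each preparation. Pck1 was higher in female-called cells in 4 of 4 libraries, by 1.36- to 1.98-fold in S1-like cells and by 1.70- to 2.71-fold in S2-like cells. In S2-like cells the female levels were 2630, 2928, 3317 and 2157 CPM over the 4 times, and the male levels 1033, 1081, 1664 and 1273 CPM. Every female value was above every male value. The mean log2 difference was 1.14 (SD 0.31, exact sign-flip permutation p = 0.125, the smallest that 4 libraries allow). In S3-like cells females were higher in 2 of 4 libraries, and the mean log2 difference was 0.17 (SD 0.32). How many of all genes differ by sex in 4 of 4 libraries was not counted, for Pck1 or for the members below.

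**Figure D3:**
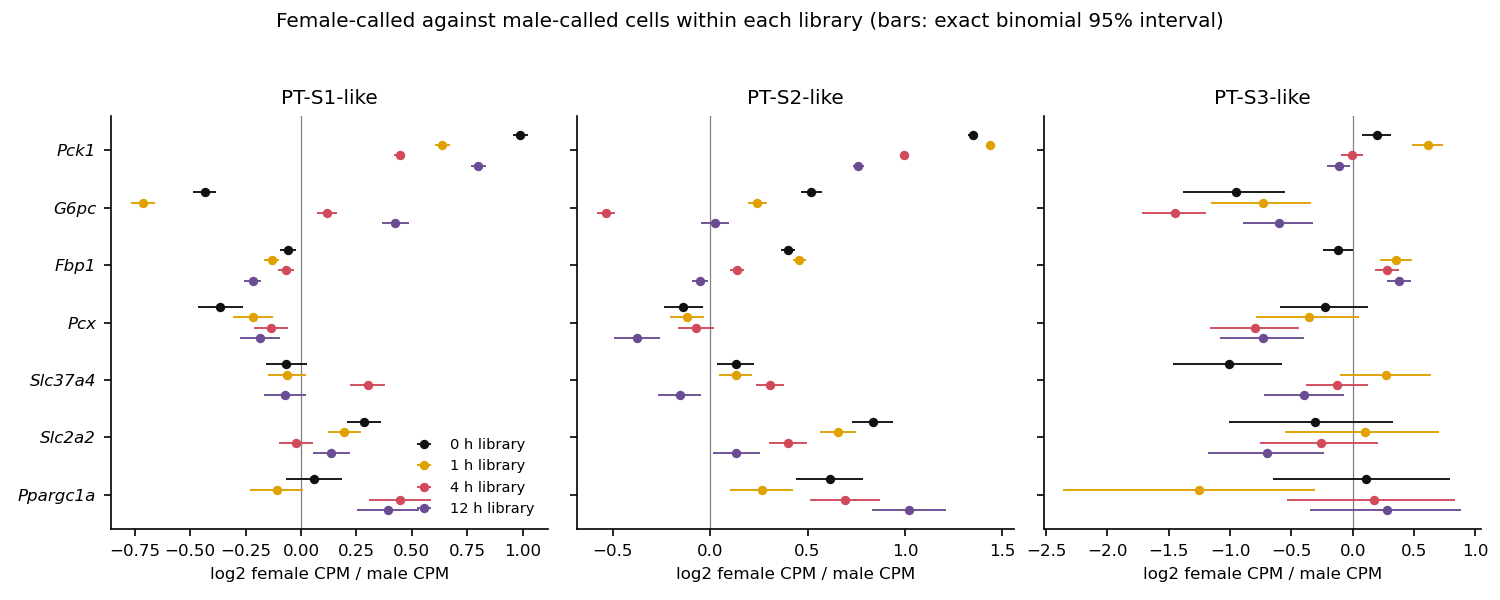
Log2 ratio of female to male CPM for each member in S1-, S2- and S3-like cells, 1 point per library, with exact binomial 95% intervals. Pck1 lies above 0 in all 4 libraries in S1- and S2-like cells. Pcx lies below 0 in all 4 libraries in every segment, with some intervals across 0.

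Other members differed by sex in a segment-bound way. Slc2a2 and Ppargc1a were higher in female S2-like cells in 4 of 4 libraries, with mean log2 differences of 0.51 (SD 0.31) and 0.65 (SD 0.31). Pcx was lower in female cells in 4 of 4 libraries in all 3 segments, by mean log2 differences of -0.23 in S1-like, -0.18 in S2-like and -0.53 in S3-like cells. Its counting interval included 0 in S2-like cells at 4 h and in S3-like cells at 0 and 1 h. G6pc was lower in female S3-like cells in 4 of 4 libraries (mean log2 difference -0.94, SD 0.37), and had no fixed direction in S1-like cells (higher in 2 of 4). In S2-like cells the sexes sat in different clusters: clusters 4 and 8 were 99.8% and 92.8% female, and the other 5 were at most 2.76% female. S3-like cells were split in the same way, with cluster 18 at 97.4% female and clusters 17 and 21 at 0.584% and 1.36%. Among S1-like clusters the female share ran from 7.97% in cluster 16 and 11.1% in cluster 0 to 96.4% in cluster 9, which had Pck1 at 2289.9 CPM at 0 h. S1-like clusters 1, 6, 19 and 43 were mixed, at 37.9%, 65.3%, 38.9% and 31.7% female. In S2- and S3-like cells a sex difference within a cell state and a difference in the cells each sex sends to the segment can therefore not be told apart. For S1-like cells the sexes were not compared within the mixed clusters, so the part of each was not tested. In S3-like cells only 48 to 63 cells per library were called female.

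The changes over time were not alike in the sexes. The G6pc level in male S2-like cells was 389, 416, 693 and 308 CPM at 0, 1, 4 and 12 h, and in female S2-like cells 557, 491, 479 and 313. Its 4 h log2 ratio was therefore 0.84 in males and -0.22 in females. At 12 h in S1-like cells, G6pc had a log2 ratio of -1.06 in males (669 to 319.7 CPM) and -0.21 in females (495 to 429 CPM). Ppargc1a in S1-like cells at 4 h was below 0 in both, at -0.92 in males and -0.53 in females. Pck1 in S2-like cells at 4 h was above 0 in both, at 0.69 in males and 0.33 in females. Fbp1 in S1-like cells at 4 h was -0.47 in males and -0.48 in females. The difference between the sexes in these changes has no replicate and was not tested.

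**Figure D4:**
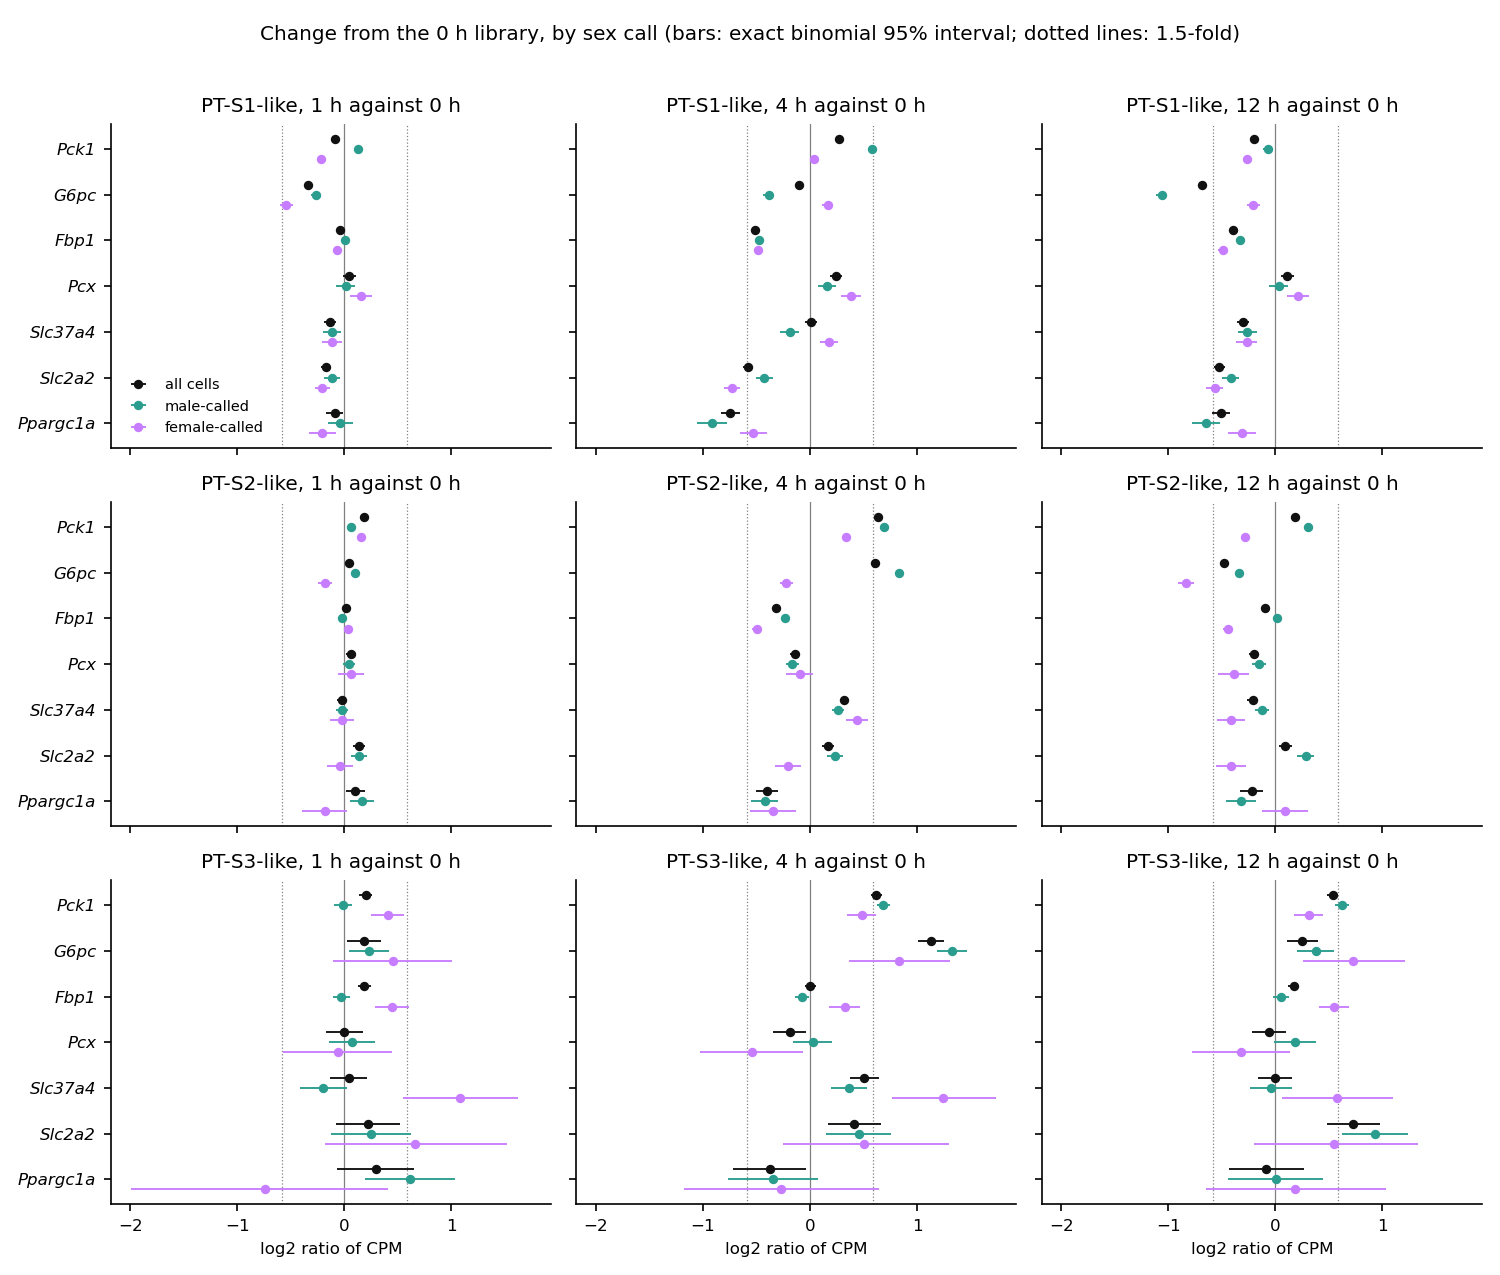
Log2 ratio of CPM to the 0 h library for each member by segment (rows) and time (columns), for all cells, male-called and female-called cells, with exact binomial 95% intervals; dotted lines mark 1.5-fold. G6pc in S2-like cells at 4 h lies at 0.84 in males and -0.22 in females, and Ppargc1a in S1-like cells at 4 h lies below 0 in both.

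The enzymes that gluconeogenesis shares with glycolysis stayed inside the 1.5-fold lines. Of 12 genes, from Mdh1 to Ldhb, 12 were tested and 0 were called in any segment at any time. Between 1.13% and 6.56% of all tested genes were called in each direction, by segment and time. In S1-like cells Eno1 was at a log2 ratio of -0.53 at 4 h, Aldoa at 0.29 at 4 h and 0.32 at 12 h, and Ldhb at -0.09 at 1 h. The values nearest to the upper line were in S3-like cells at 4 h, where Pgam1 had 0.58 and Gapdh 0.57, both named after their values were seen.

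Among 22 genes that bring in precursors, 20 were tested in S1-like cells, and 0 were called at 1 h, 1 higher and 1 lower at 4 h, and 2 lower at 12 h. Higher calls took 1.54%, 6.56% and 3.58% of all tested genes there at 1, 4 and 12 h, and lower calls 1.38%, 4.69% and 3.11%. Slc16a1 (the monocarboxylate carrier MCT1, which moves lactate) rose at 4 h, with log2 ratios of 1.25 in S1-like, 1.07 in S2-like and 1.10 in S3-like cells. Its level in S1-like cells was 59.3, 72.2, 141 and 77.9 CPM. Slc5a8, the luminal sodium-coupled lactate carrier, fell at both later times in all 3 segments. In S2-like cells it was at 267, 252, 161 and 124 CPM, and its 12 h log2 ratio was -1.11 there, -2.10 in S1-like and -0.94 in S3-like cells. Gk (glycerol kinase), named after its values were seen, was the other gene called lower in S1-like cells at 12 h, with a log2 ratio of -0.67. The rest of the rule's genes were not called: Gpt2 (alanine aminotransferase) had 0.37 and Aqp7 (a glycerol channel) -0.16 at 1 h, and Slc25a10 (the dicarboxylate carrier) 0.55 at 12 h.

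Of 17 genes that control glycolysis and pyruvate entry, 11 were tested in S1-like cells. At 1 h 0 were called, at 4 h 2 higher and 2 lower, and at 12 h 1 lower. Beside these, 1.54%, 6.56% and 3.58% of all tested genes were higher at 1, 4 and 12 h, and 1.38%, 4.69% and 3.11% lower. Pdk4, a kinase that shuts pyruvate dehydrogenase and so spares pyruvate, was called lower at 4 and 12 h in all 3 segments. In S2-like cells it was at 26.8, 26.4, 16.7 and 7.59 CPM, and its 12 h log2 ratio was -1.82 there, -3.04 in S1-like and -1.30 in S3-like cells. Pdk2 fell at 4 h in S1-like cells, from 92.1 to 50.02 CPM (log2 ratio -0.88). Pfkp, a phosphofructokinase, was called higher at 4 h, from 3.93 to 7.77 CPM in S1-like cells (log2 ratio 0.98). Pfkfb4 had a log2 ratio of 0.56 at 1 h and was not called then. At 4 h it was called higher, with log2 ratios of 0.61 in S1-like and 0.66 in S2-like cells.

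Of 31 regulators, 27 were tested in S1-like cells: 2 were higher and 1 lower at 1 h, 2 higher and 3 lower at 4 h, and 2 higher and 3 lower at 12 h. Shares of all tested genes were 1.54%, 6.56% and 3.58% higher and 1.38%, 4.69% and 3.11% lower at these times. Irs2, the insulin receptor substrate whose transcription FoxO factors drive and insulin shuts off, was called lower in every segment at every time. In S2-like cells Irs2 was at 48.0, 5.25, 4.45 and 13.9 CPM, from 2630, 295, 240 and 592 UMIs, with log2 ratios of -3.19, -3.43 and -1.79. In S1-like cells it was at 21.9, 7.27, 7.44 and 14.4 CPM (log2 ratios -1.59, -1.56 and -0.61), and in S3-like cells at 66.3, 19.1, 6.79 and 25.2 CPM. The 3 later libraries all lay below the 0 h library. Igfbp1, another FoxO target, fell at 4 h in S1-like cells, from 25.7 to 6.83 CPM (log2 ratio -1.91), and was called higher in S2-like cells at 12 h (log2 ratio 0.86).

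Cebpa, a transcription factor of the gluconeogenic programme in liver, rose at 4 h, with log2 ratios of 1.16 in S1-like, 1.11 in S2-like and 0.89 in S3-like cells. Cebpb fell at 12 h, with -1.12, -0.80 and -0.82. Ppara, the fatty acid receptor of fasting, was at 35.7, 61.8, 64.2 and 59.6 CPM in S1-like cells, with log2 ratios of 0.79, 0.85 and 0.74. Insr, the insulin receptor gene, and Foxo1 were named after their values were seen. Insr had log2 ratios of -0.09, -0.12 and -0.06 in S1-like cells, and Foxo1 had -0.02, -0.19 and -0.17. The median of the regulators tested in S1-like cells was 0.03, -0.12 and -0.06, beside 0.0024, 0.05 and 0.04 for all tested genes.

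**Figure D5:**
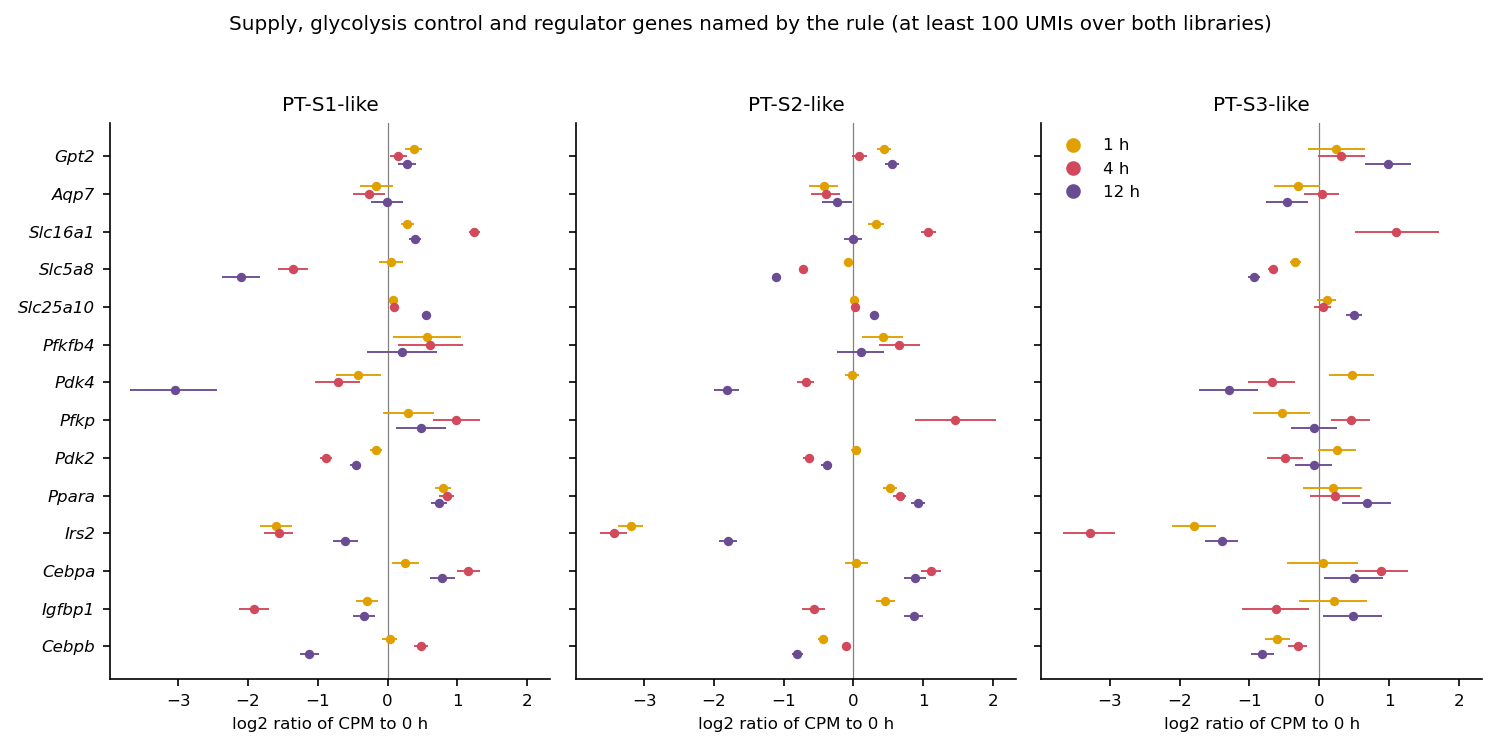
Log2 ratio of CPM to the 0 h library for the supply, glycolysis control and regulator genes named by the rule, in S1-, S2- and S3-like cells at 1, 4 and 12 h, with exact binomial 95% intervals; genes under 100 UMIs over both libraries are not drawn. Irs2 is far below 0 in all 3 segments, Slc16a1 is above 1 at 4 h in all 3, and Pdk4 is lowest at 12 h.

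Relatives of the members showed other patterns. Of 14 such genes, 9 were tested in S1-like cells, and 1, 2 and 2 were called higher at 1, 4 and 12 h, with 0, 1 and 0 lower. For all tested genes the shares were 1.54%, 6.56% and 3.58% higher and 1.38%, 4.69% and 3.11% lower. Pprc1, of the PGC-1 family, rose at 1 h (log2 ratio 0.64) and 4 h (0.88), from a level of 4.07 CPM. Slc2a5, the fructose carrier GLUT5, fell at 4 h, from 47.8 to 25.6 CPM (log2 ratio -0.90), and had -0.36 at 12 h. Slc2a9, a urate carrier, rose at 12 h from 2.09 to 4.34 CPM (log2 ratio 1.05). Fbp2, the muscle paralogue of Fbp1, had a log2 ratio of -0.13 at 1 h and was called higher at 12 h, at 0.63. Reads of Fbp1 and Fbp2, which lie near each other and share sequence, could have been split by the counting. The luminal glucose carrier Slc5a1 and its relative Slc5a10, which is not a main glucose carrier, were called in S1-like cells at 0 of 3 times each. Slc5a1 had log2 ratios of 0.22 at 1 h and -0.08 at 4 h, and Slc5a10 had -0.16, 0.21 and -0.18. In S2-like cells Slc5a10 was called higher at 4 h (0.65) and Slc5a1 at 12 h (0.81).

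Over the 12 points of 3 segments by 4 times, G6pc and Slc37a4 were each other's most similar gene among 9545, with a Pearson correlation of log2(CPM + 1) of 0.99. Pck1 was most like Ssna1 (0.97), Isca2 (0.96) and Aldh2 (0.96). Fbp1 was most like Xylt1, Coq8a and Pdk2 (0.97, 0.97 and 0.96). Pcx was most like Pmm2, Ces1e and Fam149a (each 0.98), Slc2a2 like Myo10, Cit and Anp32a (0.996, 0.99 and 0.99), and Ppargc1a like Bpnt1, Sntb2 and Fkbp15 (each 0.99). After each other, G6pc was next to Glyat and Fxyd2, and Slc37a4 next to Sod2 and Dleu7. Between members the values ran from 0.49 for Pck1 with Ppargc1a to 0.99, and Slc2a2 with Ppargc1a had 0.94. The points share their libraries, and the segment gradient weighs more in these values than time does.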

How the data were processed

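Each library has 1 deposited matrix of unnormalized UMI counts, by gene and cell barcode, which the authors made with Cell Ranger 3.1.0, STAR and Seurat on mm10, per the submitters' processing notes. The annotation version and the strand setting of the counting are not given in the sources used here. Per the labels' protocols, dead cells were removed after enzymatic digestion.

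Barcodes with at least 300 genes and at most 50% mitochondrial UMIs were kept, and calls of a simulated-doublet caller (30 neighbours, 0.8% expected per 1000 cells) were removed, 7.24% to 7.78% per library. Cells were clustered by the Leiden method at resolution 1.5 on 30 principal components of 2025 genes, without the members and the pathway genes. Clusters were named from a fixed marker list (32 named, 15 unnamed), with naming thresholds set after the clusters were seen. UMIs were summed per class and library. CPM has exact Poisson intervals and a log2 ratio to 0 h an exact conditional binomial interval, both for counting error only. The script was tested on simulated data. Alternatives covered filters, doublets, resolution, scaling, sex and the fold. All 7 members are named, and from each pathway list the genes with the largest rise and fall in S1-like cells at each time, plus the 3 genes most like each member. A gene that this rule names is not reported here. Members and lists were chosen with earlier results of these data known. Python 3.11.15, numpy 2.4.6, scipy 1.17.1, pandas 2.3.3, scanpy 1.11.5, scikit-learn 1.9.0, leidenalg 0.10.2 and matplotlib 3.10.9 were used. Of the feature identifiers, 99.6% matched the annotation that gave the gene positions.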

Additional observations from a re-analysis of the deposited data

Results flagged for a closer look

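In S2-like cells 3 members moved in opposite directions in the sexes, with female minus male differences of the log2 ratio to 0 h whose intervals lay on either side of 0. G6pc at 4 h differed by -1.0541: -0.22 in female-called cells (interval -0.28 to -0.16) and 0.84 in male-called cells (0.80 to 0.87). Slc2a2 at 12 h differed by -0.6997: -0.42 in females (-0.56 to -0.28) and 0.28 in males (0.20 to 0.36). Pck1 at 12 h differed by -0.5863: -0.29 in females (-0.32 to -0.25) and 0.30 in males (0.28 to 0.32). With 1 library per time these differences were not tested, and in this segment the sexes sat in different clusters.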

How the results depend on the processing

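Calls lay near the 1.5-fold line and moved with several choices. In S1-like cells at 4 h, 1 member was called. It was 2 with a mitochondrial limit of 25%, with cells weighted equally or with ratios centred on the median gene, 3 with the total without mitochondrial UMIs, and 0 at a fold of 2. At 12 h the 1 call became 2 with male-called cells alone, and 0 with female-called cells alone or at a fold of 2. In S2-like cells at 4 h the 2 calls became 1 with the 25% limit, equal weights or centring, and 0 without mitochondrial UMIs, in female-called cells or at a fold of 2; at 12 h equal weights and female-called cells gave 1 where 0 were called. In S3-like cells at 1 h the 25% limit, male-called and female-called cells each gave 1 where 0 were called. At 4 h the 2 calls became 1 with the 25% limit, doublet calls kept, no mitochondrial UMIs, resolution 1.0 or a fold of 2, and 4 without clusters near a segment boundary. At 12 h the 1 call became 0 with doublet calls kept, resolution 1.0 or a fold of 2, and 2 in male-called cells or without boundary clusters. The cause of these moves was not tested. The log2 ratio of G6pc in S2-like cells at 4 h was -0.2191 in female-called cells, the 1 called ratio that changed sign; uncalled ratios that did so (as Pck1 and Slc2a2 in S2-like cells at 12 h) are not counted. The choices to leave out cluster 13 or boundary clusters were made after seeing the data. No paired analysis was possible because each time has 1 library. Few UMIs limit S3-like cells split by sex, where Ppargc1a rested on 10 to 34 in females.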
